A study of Mus musculus with 13 samples.

Results

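The 4 members of the Cadm family, Cadm1, Cadm2, Cadm3 and Cadm4, were described in nuclei of the mouse hippocampus across cell classes, ages and diets. They were matched by symbol among the 32285 genes of the deposited matrices, and all 4 were found. The members were chosen by measured values, their levels by class and the fold change of Cadm1 with age in these same libraries, so its levels by class and its changes with age are given as descriptions. Counts of pairs past a threshold with age are printed only beside the share of all genes past it, and nothing is drawn from them.

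Cadm proteins, also called SynCAMs or nectin-like molecules, are single-pass membrane proteins whose extracellular immunoglobulin domains bind one another within and across cell contacts. They are known for organising synapses, where they form adhesive pairs across the cleft, and for holding axons and myelinating glia together. Their short cytoplasmic tails carry docking sites for FERM-domain and PDZ-domain scaffold proteins.

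Single-nucleus RNA sequencing had been done on the hippocampus of 13 female mice of the C3B6F1 hybrid strain (written C3HB6F1 in the sample labels), with 1 library per mouse. The first group held 3 young mice, 5 months of age, fed ad libitum. The second held 3 old mice, 24 months of age, fed ad libitum. The third held 3 mice of 24 months under acute dietary restriction, begun at 20 months, and the fourth held 4 mice of 24 months under long-term dietary restriction, begun at 5 months. All groups were of one sex and one hybrid strain, and no transgene or deletion was named for any of them.

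Libraries held 38546292 to 80538090 UMIs (unique molecular identifiers, which count captured RNA molecules), and 98041 nuclei were retained in 43 clusters. Marker genes put 83697 of these nuclei, in 22 clusters, into 13 classes, which are written as "-like" because they rest on markers alone. The other 14344 nuclei lay in 21 unnamed clusters. Granule-like nuclei were the most numerous with 40433 nuclei, and their markers summed to 4770 CPM (defined below) against at most 1684 CPM in any other class. The CA1-like markers separated less well, with 3288 CPM against 2742 CPM in the next class. The 4 libraries numbered 1, 1 in each group, stood apart, with 0.785% to 3.917% oligodendrocyte-like nuclei among named nuclei against 9.024% to 25.87% in the other 9.

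All levels are CPM, the UMIs of a gene scaled to a total of 1000000 UMIs, summed over the nuclei of one class in one mouse. A class mean weights the 4 groups equally, and its SD is over mice. Cadm1 lies on chromosome 9 (47530173 to 47857637, mm10, plus strand) and spans 327.5 kb. Cadm2 lies on chromosome 16 (66655421 to 67620908, minus strand) and spans 965.5 kb, more than 99.8% of the genes in the matrices. Cadm3 lies on chromosome 1 (173333258 to 173367695, minus strand) with 34.4 kb, and Cadm4 on chromosome 7 (24482023 to 24504539, plus strand) with 22.5 kb, against a median span of 12.3 kb. Cadm2 overlaps the antisense genes 1700010K23Rik and 4933411O13Rik, and Cadm3 overlaps Ackr1 and Aim2. Whether counting used strand is not given in the sources used here, so UMIs of these overlapping genes may not be fully apart.

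Cadm1, a member that promotes excitatory synapse formation when presented to neurons, was highest among the named classes in astrocyte-like nuclei, at 1948 CPM (SD 386, 13 mice). The lowest astrocyte-like value of any mouse was 1256 CPM and the highest was 2442 CPM, and in 13 of 13 mice the gene was higher there than in inhibitory-like nuclei, the next class. Inhibitory-like nuclei followed with 1057 CPM (SD 164), microglia-like nuclei with 919 CPM (SD 334), and subicular or cortical excitatory-like nuclei with 869 CPM (SD 100).

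Below these, Cadm1 averaged 805 CPM (SD 98.8) in granule-like, 740 CPM (SD 214) in CA1-like, 732 CPM (SD 84.6, 11 mice) in CA3-like and 698 CPM (SD 86.2) in oligodendrocyte precursor-like nuclei. Each class from inhibitory-like down to oligodendrocyte precursor-like differed from its neighbour in the order by less than 1 SD. Oligodendrocyte-like nuclei held 371 CPM (SD 73.0), close to endothelial-like nuclei with 390 CPM (SD 135, 8 mice). Mural-like (228 CPM, 7 mice), fibroblast-like (126 CPM, 9 mice) and Cajal-Retzius-like nuclei (72.0 CPM, SD 18.8, 7 mice) were lowest, and the astrocyte-like mean was 27.1 times the Cajal-Retzius-like mean. The Cajal-Retzius-like value rested on 39 UMIs.

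Cadm2, a member found on axons and at synapses, was highest among the named classes in granule-like nuclei, at 5921 CPM (SD 552, 13 mice). Astrocyte-like nuclei came next with 5255 CPM (SD 583), and the granule-like value was the higher of the pair in 12 of 13 mice. Subicular or cortical excitatory-like (4093 CPM, SD 729), CA1-like (3965 CPM, SD 752), CA3-like (3651 CPM, SD 642, 11 mice) and oligodendrocyte precursor-like nuclei (3650 CPM, SD 372) formed a middle tier whose neighbours differed by less than 1 SD.

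Inhibitory-like nuclei held 2218 CPM (SD 358) of Cadm2, below oligodendrocyte precursor-like nuclei in 13 of 13 mice, and oligodendrocyte-like nuclei held 1891 CPM (SD 278). Endothelial-like nuclei averaged 1307 CPM with an SD of 818 over 8 mice, so that their place in the order is loose. Fibroblast-like nuclei held 847 CPM (SD 501, 9 mice). Microglia-like (432 CPM, SD 243), Cajal-Retzius-like (430 CPM) and mural-like nuclei (337 CPM) were lowest, and the granule-like mean was 17.6 times the mural-like mean.

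Part of the low values can be set against free RNA of the most numerous class. Shares here are of means over mice, not weighted by group. Granule-like markers are meant to be low in other classes, but not all are equally low. In CA1-like nuclei Rfx3 stood at 13.25% of its granule-like level and Prox1 at 0.819%. In microglia-like nuclei the markers were read at a median of 14.6% of their granule-like level (range 4.36% to 35.7%). Cadm2 in microglia-like nuclei stood at 7.28% of its granule-like level, inside that range. In mural-like, fibroblast-like and endothelial-like nuclei Cadm2 also lay within the range of the granule markers, as did Cadm1. Those ranges were 4.76% to 83.2%, 12.1% to 27.0% and 14.9% to 55.3%, so wide that lying inside them decides little. In oligodendrocyte-like nuclei Cadm2 stood at 32.0% and Cadm1 at 46.3% of the granule-like level, inside a marker range of 2.04% to 75.4% (median 14.8%). The top of that range is Prox1, a gene that cells of the oligodendrocyte lineage are also known to express. Both values lay above that median and below that top. The part of free RNA in these values was not tested. Cadm1 in microglia-like nuclei stood at 114% of its granule-like level, above every one of those markers. In astrocyte-like nuclei Cadm3 stood at 20.9% of its granule-like level, beside a median of 19.8% for the granule markers.

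Cadm3, a member best known from axons, had its 6 highest class means in neurons. Its highest class mean was 116 CPM in Cajal-Retzius-like nuclei (SD 20.4, 7 mice, 67 UMIs). Their lowest mouse, at 94.5 CPM, lay above every mouse of the next named class. Unnamed clusters, which the classes leave out, came nearer, and a small one lay higher. Cluster 39, of 50 nuclei with Prl, Reln and Ndnf among its leading genes, held 142 CPM pooled over mice. The Cajal-Retzius-like cluster held 122 CPM pooled. Clusters 19, 23 and 27 held 75.8, 78.5 and 83.9 CPM pooled over mice. Their highest mice, at 120, 119 and 116 CPM, lay above the lowest Cajal-Retzius-like mouse. CA3-like nuclei held 55.2 CPM (SD 8.27, 11 mice), and in 9 of 11 mice they exceeded inhibitory-like nuclei, at 45.8 CPM (SD 6.98). Subicular or cortical excitatory-like (45.7 CPM), granule-like (41.5 CPM, SD 3.59) and CA1-like nuclei (39.5 CPM, SD 6.24) each differed from its neighbour by less than 1 SD.

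Among glia, oligodendrocyte precursor-like nuclei carried 32.0 CPM of Cadm3 (SD 8.82), and oligodendrocyte-like nuclei 13.8 CPM (SD 4.86). Microglia-like (10.9 CPM) and astrocyte-like nuclei (8.84 CPM, SD 4.51) were lower still. Astrocyte-like nuclei, with the highest level of Cadm1 and the second highest of Cadm2 among the named classes, thus had the second lowest mean of Cadm3. Fibroblast-like (15.5 CPM, 21 UMIs), mural-like (14.4 CPM, 6 UMIs) and endothelial-like nuclei (7.66 CPM, 7 UMIs) gave Cadm3 values that rest on very few molecules.

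Cadm4 is known as a glial partner of axonal Cadm3 in myelination. Oligodendrocyte precursor-like nuclei were highest with 62.0 CPM (SD 18.8, 13 mice), followed by mural-like nuclei with 56.3 CPM (SD 30.4, 7 mice, 22 UMIs), oligodendrocyte-like nuclei with 51.1 CPM (SD 7.55) and astrocyte-like nuclei with 44.6 CPM (SD 9.05). Neighbours in this upper group differed by less than 1 SD. Astrocyte-like nuclei exceeded subicular or cortical excitatory-like nuclei (32.0 CPM, SD 6.19) in 13 of 13 mice.

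Named neuronal classes split on Cadm4, but unnamed clusters lay between them. The 10 unnamed clusters that had at least 100 nuclei and were not rich in doublets held 10.0 to 18.9 CPM pooled over mice. Subicular or cortical excitatory-like and inhibitory-like nuclei (31.5 CPM, SD 6.03) lay well above CA1-like (8.86 CPM, SD 2.09), CA3-like (7.94 CPM, SD 1.99) and granule-like nuclei (5.33 CPM, SD 1.40). The granule-like mean of Cadm4 was the lowest of the 13 classes, but without the 4 libraries numbered 1 the endothelial-like mean was lowest, and in old mice fed ad libitum alone the Cajal-Retzius-like mean was. The granule-like level rested on 1457 UMIs over 40433 nuclei and ranged from 3.18 to 8.92 CPM over mice. Cajal-Retzius-like (25.9 CPM, 16 UMIs), fibroblast-like (12.3 CPM, 20 UMIs), endothelial-like (9.62 CPM, 8 UMIs) and microglia-like nuclei (9.17 CPM, 25 UMIs) were read from few molecules of Cadm4.

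**Figure D1:**
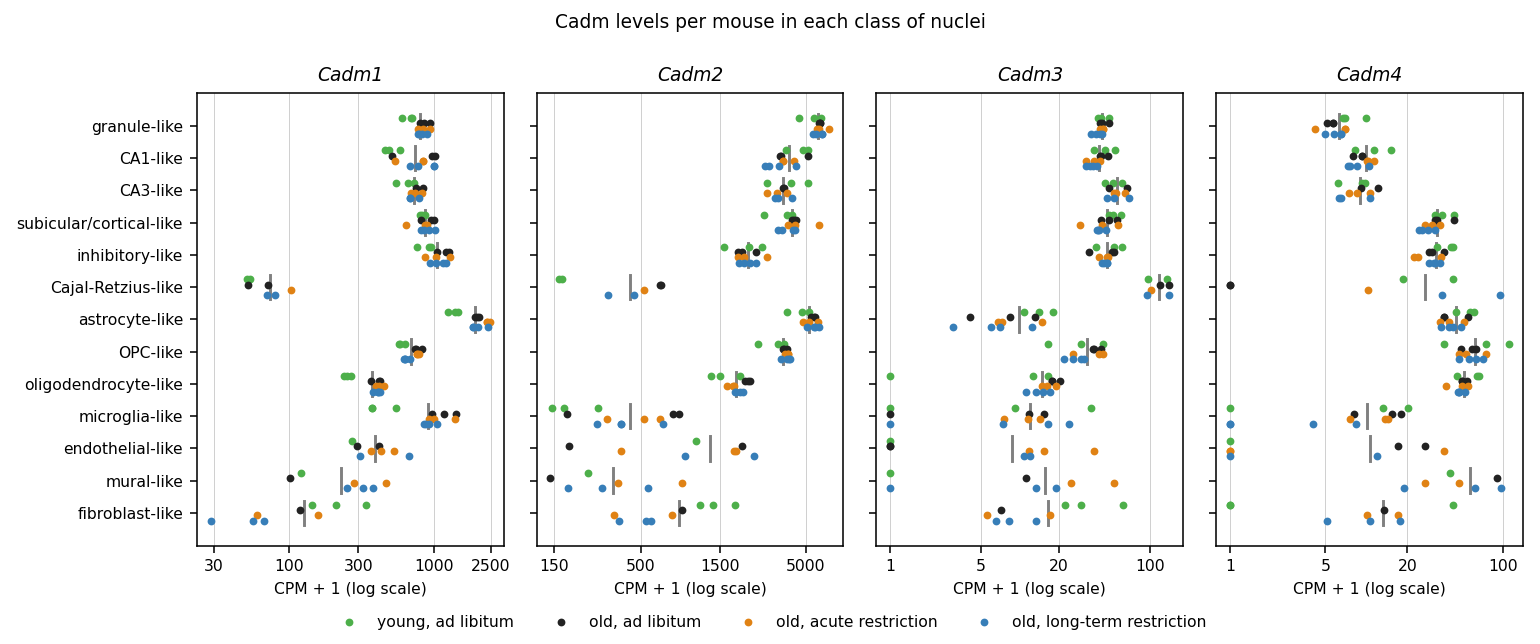
Level of each Cadm gene per mouse (x axis, CPM + 1 on a log scale) in 13 classes of nuclei (rows); each point is 1 mouse coloured by group and the grey bar is the mean of the group means. Cadm1 peaks in astrocyte-like nuclei at 1948 CPM, Cadm2 in granule-like nuclei at 5921 CPM, Cadm3 in Cajal-Retzius-like nuclei at 116 CPM and Cadm4 in oligodendrocyte precursor-like nuclei at 62.0 CPM.

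Levels of different genes were compared only per length, as CPM per kb of genomic span. On that scale the peaks drew together, with 5.95 for Cadm1 in astrocyte-like, 6.13 for Cadm2 in granule-like, 3.37 for Cadm3 in Cajal-Retzius-like and 2.76 for Cadm4 in oligodendrocyte precursor-like nuclei. In granule-like nuclei the order per kb was Cadm2 (6.13), Cadm1 (2.46), Cadm3 (1.21) and Cadm4 (0.237). In oligodendrocyte-like nuclei Cadm4 led with 2.27 CPM per kb, ahead of Cadm2 with 1.96 and Cadm1 with 1.13. The scale assumes that UMIs arise along the whole span, which was not tested.

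Clusters within a class differed as well. The 4 inhibitory-like clusters, read with their mice pooled, held 1245, 1156, 526 and 726 CPM of Cadm1. The first carried the most somatostatin (Sst, 177 CPM), the second the most Vip (220 CPM) and cannabinoid receptor Cnr1 (818 CPM), and the remaining pair the most Lamp5 (104 and 159 CPM). Pooled Cadm1 was thus lower in the pair with Lamp5, and Cadm2 was lowest in the third cluster, at 1192 CPM against 2240, 2685 and 2249 CPM in the others. Over mice with at least 20 nuclei, Cadm1 in the third cluster ranged from 354 to 675 CPM, below every mouse of the first and second clusters, whose lowest values were 945 and 791 CPM. In the fourth it ranged from 578 to 920 CPM over 11 mice, which overlapped the second.

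Of the unnamed clusters, the 10 that had at least 100 nuclei and were not rich in doublets all carried the vesicular glutamate transporter gene Slc17a7, at 92.2 to 198 CPM, and their Cadm1 ranged from 501 to 2114 CPM. Clusters 19 and 23 held 2114 and 2112 CPM of Cadm1 pooled over mice, above the 1987 CPM of the astrocyte-like cluster. As means over mice with at least 20 nuclei, clusters 19 and 23 held 2088 and 1953 CPM and the astrocyte-like cluster 1955 CPM. The lowest were cluster 32, at 501 CPM, and cluster 37, at 721 CPM, of which 88.3% of nuclei came from 1 library. Over 32 clusters of at least 100 nuclei in which fewer than 50% of barcodes were doublets, Cadm1 and Cadm2 had a Pearson correlation of 0.62 on log2 CPM and a Spearman correlation of 0.36. Cadm4 was close to unrelated to Cadm1 (0.03 and 0.01) and Cadm3 (-0.02 and -0.02), and slightly inverse to Cadm2 (-0.20 and -0.27). These clusters share libraries and depth, and the correlations are descriptions only.

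**Figure D2:**
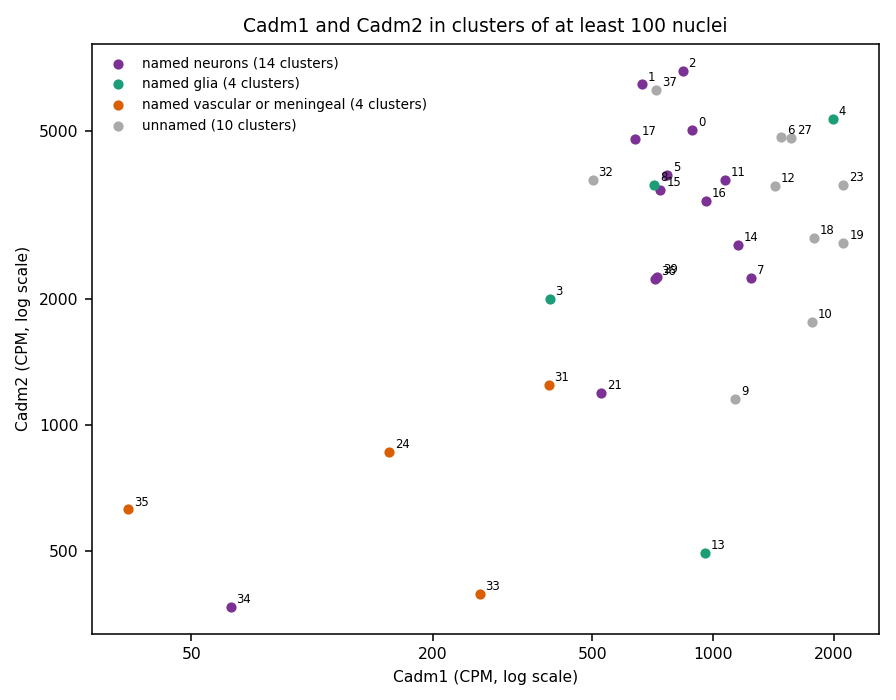
Cadm1 (x axis) against Cadm2 (y axis) in 32 clusters of at least 100 nuclei, both as CPM on log scales, each point 1 cluster with its number and colours marking 14 named neuronal, 4 named glial, 4 named vascular or meningeal and 10 unnamed clusters. Clusters 19 and 23 lie at the right beside the astrocyte-like cluster 4, and the microglia-like cluster 13 has Cadm1 at 954 CPM with Cadm2 at 497 CPM.

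The 5 genes most like each member over the 13 class means (Pearson correlation of log2 CPM, 14622 genes compared) were as follows. Cadm1 was nearest to Rnf121 (0.889), Kcnk1 (0.827), Fastkd1, Rgs22 and Mgll, of which Rnf121, Kcnk1 and Mgll also peaked in astrocyte-like nuclei. Cadm2 was nearest to 4933411O13Rik (0.963), which lies within it on the opposite strand, then to Galnt16, Sybu, Nlgn1 (0.928) and Adgrb3 (0.928). Cadm3 was nearest to Fndc8 (0.976), Srsf12, C2cd5, Nol10 and Thsd7b, and all 5 peaked in Cajal-Retzius-like nuclei. Cadm4 was nearest to Zc4h2 (0.867), Pomt2, S100b (0.823), Trim7 and BC065397. With 13 points that share libraries, these values order genes and show nothing beyond that.

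With age, Cadm1 was the member whose difference had the same sign in every fitted class. Its fitted log2 fold change, old against young mice fed ad libitum, was positive in 9 of 9 fitted classes and ranged from 0.29 to 1.38. Cadm2 was positive in 7 of 9, Cadm3 in 5 of 8 and Cadm4 in 2 of 8. Over all genes 46.25% to 50.12% of the log2 fold changes in a class were positive, and the classes come from the same mice. Cadm3 and Cadm4 had too few UMIs in microglia-like nuclei to be fitted, which left 34 pairs of a gene and a class. At an adjusted p below 0.05 in edgeR, 6 of the 34 pairs were past the threshold, all higher with age (Cadm1 in 5 classes and Cadm2 in oligodendrocyte-like nuclei), where 1.51% of the 104440 pairs of all genes were. DESeq2 put 7 of 31 past it, where 4.61% of all pairs were. Since the family was chosen with this contrast in view, the count describes it and supports nothing.

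The largest difference of Cadm1 was in microglia-like nuclei. Some of these sums are small: young replicate 1 had 23 microglia-like nuclei and old ad libitum replicate 1 had 48. Young mice had 375, 376 and 547 CPM of Cadm1, and old mice fed ad libitum had 977, 1178 and 1433 CPM. Every old mouse lay above every young mouse, and the fitted log2 fold change was 1.38 (SE 0.19). Oligodendrocyte-like nuclei held 249, 238 and 265 CPM in young mice and 421, 422 and 370 CPM in old mice, again without overlap, with a log2 fold change of 0.71 (SE 0.14).

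In astrocyte-like nuclei the young values were 1463, 1256 and 1403 CPM and the old values 2069, 2011 and 1940 CPM (log2 0.57, SE 0.11). In granule-like nuclei they were 700, 601 and 706 CPM against 805, 860 and 939 CPM (log2 0.54, SE 0.13), and without TMM factors the log2 value was 0.38 and no longer past the threshold. Oligodendrocyte precursor-like nuclei had 579, 585 and 631 CPM against 832, 742 and 760 CPM (log2 0.44, SE 0.11). Without the 4 libraries numbered 1 that last value was 0.37 and no longer past the threshold. The groups did not overlap in any of these classes.

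CA1-like nuclei had the second largest log2 difference in Cadm1 (0.77, SE 0.23). Young mice had 584, 493 and 462 CPM, and old mice 516, 970 and 1017 CPM, so that old replicate 1 lay among the young, and without the 4 libraries numbered 1 the log2 value was 1.12. The log2 difference was 0.52 (SE 0.14) in inhibitory-like nuclei, and 0.69 without those libraries. It was 0.40 (SE 0.15, with 2 old mice) in CA3-like and 0.29 (SE 0.13) in subicular or cortical excitatory-like nuclei. Both the CA1-like and the inhibitory-like pair were past the threshold in DESeq2 and without the libraries numbered 1, the inhibitory-like pair also with a term for those libraries, and neither in the edgeR fit of all libraries without such a term. Those 3 fits called 4.61%, 7.32% and 7.1% of all pairs, against 1.51%. In 7 of 9 classes the old mice lay wholly above the young, where 7.51% of all pairs did.

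Cadm1 was also read in the 7 old mice under restriction against the same 3 young mice. Since those young mice are shared with the contrast that chose the gene, this is a description and no separate evidence. Depth differed too. In microglia-like nuclei the median UMIs per nucleus, taken over mice, were 1158 in young, 1337.5 in acutely and 1549.5 in long-term restricted mice. In astrocyte-like nuclei they were 2211, 2486.5 and 2913. The CPM compared here were not adjusted for depth or gene span. All restricted mice lay above all young mice in 4 of 9 classes for Cadm1 (microglia-like, oligodendrocyte-like, astrocyte-like and granule-like), and in 0 classes for Cadm2, Cadm3 and Cadm4. Over all genes, 3.34% of pairs had every restricted mouse above every young one; that share is not one for genes already higher in old than in these young mice. In microglia-like nuclei restricted mice ranged from 863 to 1413 CPM with a median of 932 CPM, and their mean was 2.34 times the young mean. In oligodendrocyte-like nuclei they ranged from 378 to 451 CPM, and their mean was 1.64 times the young mean. In astrocyte-like nuclei they ranged from 1860 to 2442 CPM, 1.59 times the young mean. In subicular or cortical excitatory-like nuclei, by contrast, only 4 of 7 restricted mice lay above the young range, and their mean was 1.04 times the young mean.

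**Figure D3:**
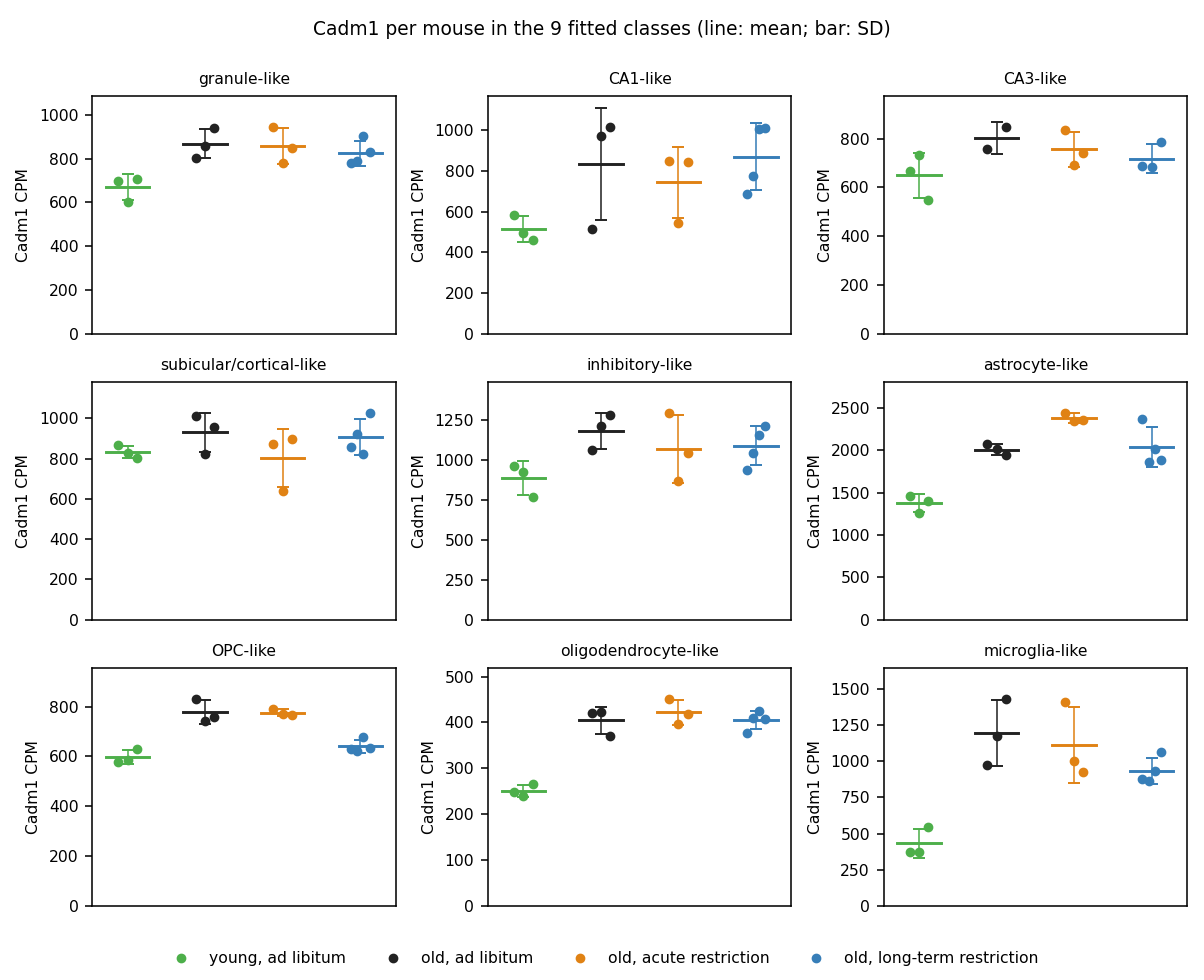
Cadm1 CPM per mouse (y axis, from 0) in the 9 fitted classes, with points for mice coloured by group, lines for group means and bars for the SD. In microglia-like nuclei the 3 young mice lie between 375 and 547 CPM and the old mice of all diets lie above 862 CPM, while in subicular or cortical excitatory-like nuclei the groups overlap.

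Granule-like nuclei were 3 clusters whose shares shifted with age, so Cadm1 was also read within each. Cluster 1 held 55.9%, 67.4% and 59.5% of the granule-like nuclei of young mice and 20.8%, 18.3% and 11.3% of those of old mice fed ad libitum. It had the lowest Cadm1 of the 3, 664 CPM pooled, against 886 CPM in cluster 0 and 839 CPM in cluster 2. Within cluster 1 Cadm1 averaged 587 CPM in young mice (SD 59.2, n = 3) and 762 CPM in old mice (SD 60.2, n = 3). Within cluster 2 the means were 663 CPM (SD 69.6, n = 3) and 889 CPM (SD 19.9, n = 3), and within cluster 0 they were 818 CPM (SD 35.6, n = 3) and 885 CPM (SD 85.4, n = 3), where the mice overlapped.

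Depth moved with age: in each of the 9 fitted classes the median UMIs per nucleus, taken over mice, were lower in young than in old mice fed ad libitum. In CA3-like nuclei this rested on 2 old mice. The median of UMIs per nucleus in microglia-like nuclei was 922 to 1311 in young mice and 1439 to 2347 in old mice fed ad libitum, and in astrocyte-like nuclei it was 1619 to 2535 against 2854 to 5026. With that median as a covariate, 1 of 34 pairs stayed past the threshold, where 0.0259% of all pairs did: Cadm1 in microglia-like nuclei (log2 1.44). The log2 values of Cadm1 in the other called classes were then 0.53 in astrocyte-like, 0.60 in oligodendrocyte-like, 0.33 in granule-like and 0.26 in oligodendrocyte precursor-like nuclei. With the trend over gene span removed, again only that pair stayed, at a log2 fold change of 1.01, where 0.578% of all pairs did. In that fit the log2 value of Cadm1 was 0.27 in oligodendrocyte-like, 0.24 in granule-like, 0.20 in astrocyte-like and 0.17 in oligodendrocyte precursor-like nuclei. The share of granule-like marker RNA in microglia-like nuclei was 10.7% to 12.7% of the granule-like sum in young mice and 9.28% to 17.1% in old mice fed ad libitum. Its part in the result was not tested.

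**Figure D4:**
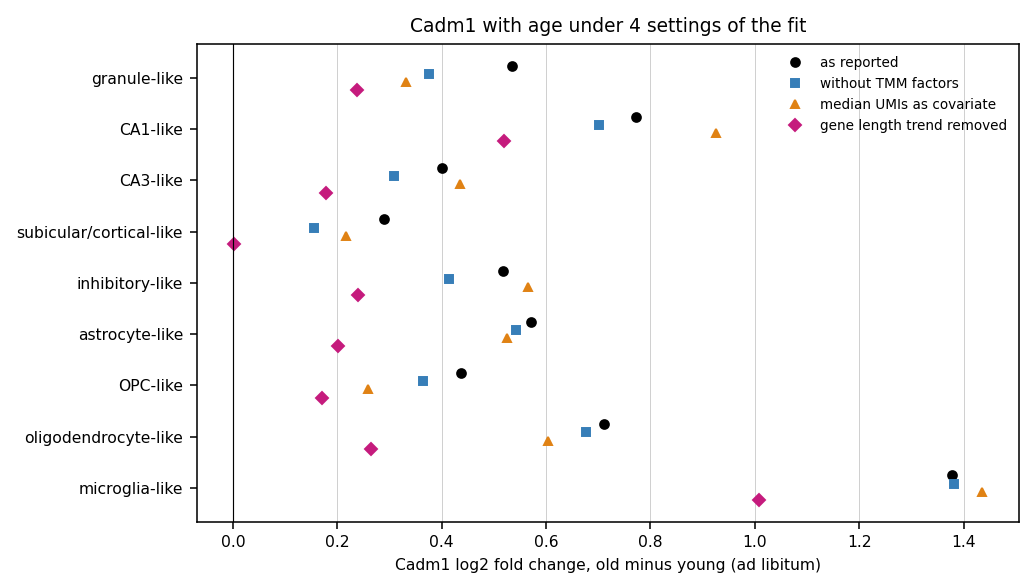
Fitted log2 fold change of Cadm1, old against young mice fed ad libitum (x axis), in 9 classes (rows) under 4 settings of the fit, each marked by its own symbol. All values are at or above 0, and with the trend over gene span removed the microglia-like value is 1.01 and the highest of the others is 0.52.

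For Cadm2, the young mice had in oligodendrocyte-like nuclei 1324, 1505 and 1991 CPM and old mice 2152, 2279 and 2243 CPM, without overlap, and the log2 fold change was 0.49 (SE 0.14). It was 0.48 in DESeq2 and 0.38 without the 4 libraries numbered 1, and neither of these was past the threshold. With the trend over gene span removed the sign of this value turned, to -0.19. The log2 value in microglia-like nuclei was 1.51 (SE 0.61), with old mice at 177, 851 and 787 CPM against 171, 144 and 276 CPM. Old replicate 1 lay among the young mice. Without the libraries numbered 1 the log2 value was 1.85 and past the threshold, and with a term for them it was 1.60 and past it, where these fits called 7.32% and 7.1% of all pairs against 1.51%. The gene is one whose microglia-like level lay within the range of the granule markers. In CA1-like and CA3-like nuclei Cadm2 had log2 fold changes of -0.08 and -0.07.

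Neither short member was past the threshold with age in any class. For Cadm3, edgeR placed 0 of 8 classes past it and 1 below an unadjusted p of 0.05, with log2 fold changes from -0.91 in astrocyte-like (SE 0.51) to 0.43 in oligodendrocyte precursor-like nuclei (SE 0.31). For Cadm4, 0 of 8 were past it and 0 below an unadjusted p of 0.05, with values from -0.42 in granule-like (SE 0.25) to 0.34 in CA3-like nuclei (SE 0.42). Over all genes, 1.51% of pairs were past the threshold and 18.6% below that unadjusted p. The granule-like Cadm4 values were 5.92, 8.92 and 5.68 CPM in young mice and 4.65, 4.71 and 4.16 CPM in old mice, the 1 pair of Cadm4 in which the groups did not overlap, where 14.4% of all pairs had old mice wholly below the young. Without TMM factors the sign of Cadm2 in inhibitory-like, Cadm3 in CA1-like and Cadm4 in subicular or cortical excitatory-like nuclei turned negative with age. That scaling moved the median of all genes by -0.14 in subicular or cortical excitatory-like, -0.10 in inhibitory-like and -0.079 in CA1-like nuclei. In granule-like nuclei it moved by -0.17.

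The question for the diets was whether old mice under restriction differed from old mice fed ad libitum. Those old mice are shared with the age contrast that chose Cadm1, and a choice for high values there favours lower values elsewhere. Signs and overlaps against them, under either restriction, are therefore descriptions and no separate evidence. For long-term restriction no member was past the threshold in any class. By edgeR 0 of 34 pairs were called and by DESeq2 0 of 31, where 0.0306% and 0.0483% of all pairs were. In edgeR 5 of the 34 had an unadjusted p below 0.05, a larger share than the 4.8% of all pairs. That count too is a description. All 5 had negative log2 fold changes. The values of the restricted mice lay wholly below those of the old mice fed ad libitum in 5 of 34 pairs and wholly above in 0, where 4.21% and 3.62% of all pairs did.

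Cadm1 in oligodendrocyte precursor-like nuclei was one of the 5. Long-term restricted mice had 629, 620, 680 and 633 CPM against 832, 742 and 760 CPM in old mice fed ad libitum and 579, 585 and 631 CPM in young mice. The restricted mice lay below the old ones and around the highest young mouse, with a log2 fold change of -0.27 (SE 0.10, 95% interval -0.47 to -0.06, adjusted p = 0.606 in edgeR). In microglia-like nuclei the restricted mice had 879, 863, 932 and 1062 CPM, overlapping the old range of 977 to 1433 CPM, with a log2 fold change of -0.36 (SE 0.16, adjusted p = 0.954 in edgeR).

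Cadm3 had negative log2 fold changes under long-term restriction in 8 of 8 classes, from -0.52 in oligodendrocyte precursor-like to -0.03 in inhibitory-like nuclei, with a smallest adjusted p of 0.822 in edgeR. Over all genes 49.2% to 53.6% of the log2 fold changes in a class were positive. The classes come from the same mice, so their signs are not separate readings. In CA1-like nuclei restricted mice had 31.3, 35.6, 33.6 and 38.5 CPM against 40.2, 41.2 and 46.6 CPM, without overlap, and the log2 fold change was -0.32 (SE 0.13, adjusted p = 1.00 in edgeR). In granule-like nuclei, where Cadm3 was measured most precisely, it was -0.17 (SE 0.08). Cadm4 in subicular or cortical excitatory-like nuclei had 27.3, 31.0, 24.7 and 23.4 CPM under long-term restriction and 43.3, 30.9 and 31.9 CPM in old mice fed ad libitum, which overlap narrowly (log2 -0.39, SE 0.17, adjusted p = 0.864 in edgeR).

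Under acute restriction edgeR again called 0 of 34 pairs and DESeq2 0 of 32, where 0.211% and 0.216% of all pairs were called. Of the 34, 1 pair had an unadjusted p below 0.05 in edgeR, where 5.07% of all pairs did. That pair was Cadm2 in oligodendrocyte-like nuclei. Acutely restricted mice had 1673, 1839 and 1820 CPM against 2152, 2279 and 2243 CPM in old mice fed ad libitum, without overlap (log2 -0.36, SE 0.14, adjusted p = 0.246 in edgeR). Young mice, at 1324 to 1991 CPM, spanned the acutely restricted values. Cadm1 in astrocyte-like nuclei moved the other way, with 2442, 2344 and 2352 CPM against 2069, 2011 and 1940 CPM, also without overlap (log2 0.23, SE 0.11, adjusted p = 0.847 in edgeR). In all, 2 pairs lay wholly above and 1 wholly below, where 6.97% and 6.29% of all pairs did.

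Long-term and acute restriction did not differ for any member past the threshold. By edgeR 0 of 34 pairs were called and by DESeq2 0 of 31, where 0.0115% and 0.0141% of all pairs were called. An unadjusted p below 0.05 was reached by 3.14% of all pairs and by 1 of the 34, which was Cadm1 in oligodendrocyte precursor-like nuclei, at 629, 620, 680 and 633 CPM under long-term and 791, 771 and 766 CPM under acute restriction (log2 -0.29, SE 0.10, adjusted p = 0.754 in edgeR). One pair lay wholly above and 1 wholly below, where 2.17% and 2.76% of all pairs did.

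The intervals differed in width by gene and class. For Cadm1 all 9 intervals of each restriction contrast excluded a doubling or a halving. The narrowest of Cadm1 was that of oligodendrocyte precursor-like nuclei, within 0.20 log2 units of its estimate under long-term restriction. Under that restriction the widest were those of Cadm2 in microglia-like nuclei, within 1.09 units, and of Cadm3 in astrocyte-like nuclei, within 1.07 units.

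**Figure D5:**
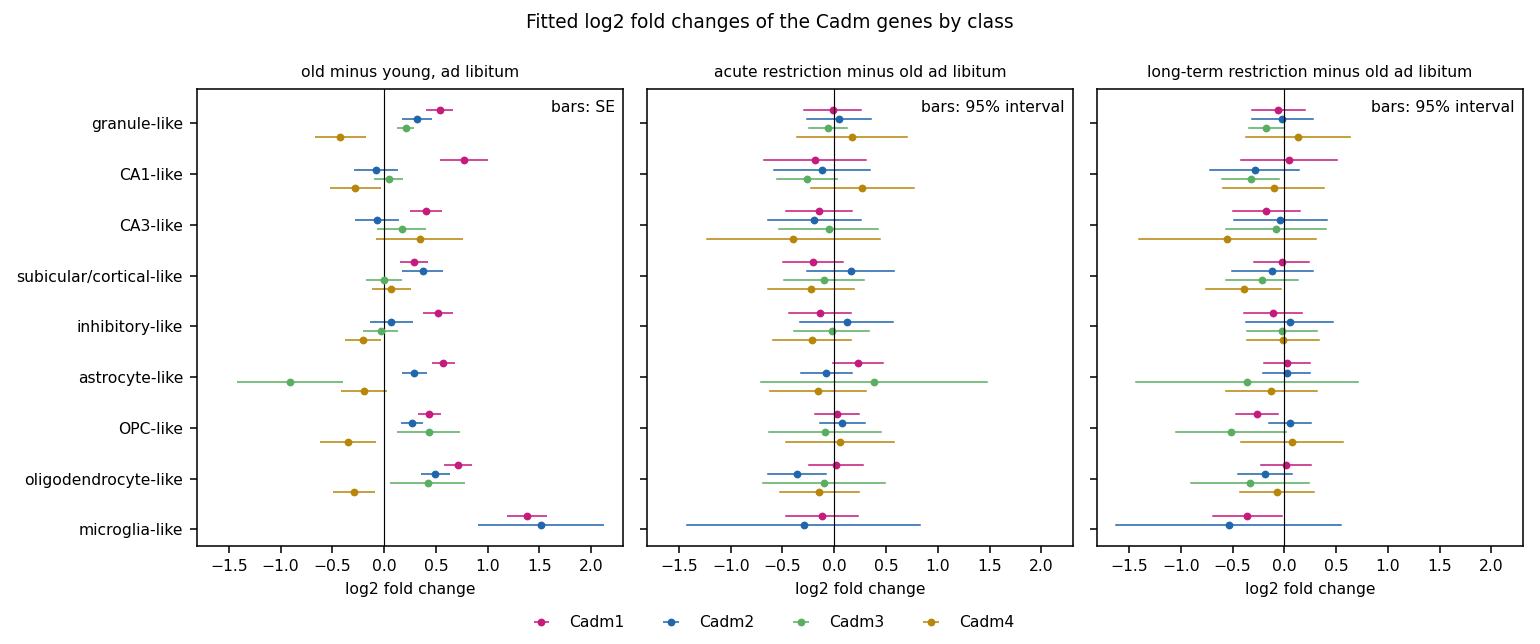
Fitted log2 fold changes (x axis) of the 4 Cadm genes, marked by colour, in 9 classes (rows) for age, acute restriction and long-term restriction; bars are the SE in the left panel and the 95% interval in the others. Cadm1 lies right of 0 in all 9 classes with age and on both sides of 0 in each diet panel, where its values run from -0.36 to 0.23.

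The partners of Cadm proteins came from a list of 16 genes that hold scaffold and ligand genes known from textbook work, all of which were fitted in at least 1 class. With age 4 of 127 pairs (3.15%) were past the threshold in edgeR, all higher, where 1.51% of all pairs were and 0.807% were higher. They were Mpdz, a scaffold with many PDZ domains, in oligodendrocyte-like nuclei (log2 0.61, SE 0.17), Epb41l3, a FERM-domain linker to the actin cortex, in granule-like nuclei (0.74, SE 0.15), Apba1, a presynaptic adaptor, in granule-like nuclei (0.52, SE 0.11), and Farp1, a Rac activator downstream of Cadm1, in astrocyte-like nuclei (0.50, SE 0.10). The median log2 fold change of the 127 pairs was 0.20, against -0.02 over all genes. The 4 genes span 164.3 to 248.5 kb. In each of the 3 restriction contrasts 0 of 127 pairs were past the threshold in edgeR. Over all genes 0.0306% of pairs were under long-term restriction, 0.211% under acute restriction and 0.0115% between the restrictions. At such shares a count of 0 says little about the partners.

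Of 34 other synaptic adhesion genes, 13 of 282 pairs (4.61%) were past the threshold with age in edgeR, 8 higher and 5 lower, where 0.807% of all pairs were higher and 0.699% lower. The 4 with the smallest adjusted p were Flrt3 in oligodendrocyte precursor-like nuclei (log2 -1.62, SE 0.27), Nrxn3 in granule-like nuclei (1.12, SE 0.15), Il1rapl1 in astrocyte-like nuclei (0.81, SE 0.14) and Ncam1 in oligodendrocyte-like nuclei (0.53, SE 0.13). Flrt3 encodes a short leucine-rich repeat ligand of latrophilins, and Nrxn3 encodes a neurexin, a presynaptic receptor of neuroligins. The 5 pairs that were lower belonged to Flrt1, Flrt3 and Lrrtm1 (named after their values were seen), which span 13.7 to 20.6 kb, and the 8 higher ones to genes of 93.0 to 1612.1 kb. Under acute restriction 1 pair was past the threshold (0.355%, against 0.211% of all pairs), Flrt1 in oligodendrocyte-like nuclei (log2 1.57, SE 0.37, adjusted p = 0.0252 in edgeR). Under long-term restriction and between the restrictions 0 were, where 0.0306% and 0.0115% of all pairs were.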

How the data were processed

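Nuclei from 13 hippocampi were sequenced, 1 library per mouse, and the labels name separate mice. The deposited matrices hold UMI counts per gene and nucleus, made by the authors with Cell Ranger 4.0.0 per the file headers, on mm10 per the submitters' processing notes. Coordinates and spans came from a GRCm38 annotation, and 32158 of 32285 genes matched it.

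Of 105759 barcodes, 105427 passed a floor of 500 detected genes and a ceiling of 5% mitochondrial UMIs. The nuclei with the highest Scrublet scores (0.8% per 1000 barcodes, 7386 in all) were removed as doublets, which left 98041. Library pairs shared 4 to 40 barcodes. Nuclei were clustered in scanpy 1.11.5 on 2000 variable genes, none of them a Cadm gene, with 30 components, 20 neighbours and Leiden resolution 1. Clusters were named from marker lists, with extra naming rules added after marker values had been seen.

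Counts were summed per mouse and class (at least 20 nuclei) and tested in edgeR 4.0.16 (filterByExpr, TMM, robust quasi-likelihood fit of all groups) with Benjamini-Hochberg adjustment over all genes of a class. Intervals are 95% and rest on the spread between mice, which the fit moderates over all genes of a class. Each SE comes from the log2 fold change and its F statistic, and at low counts it can be out of step with p. DESeq2 1.42.0 and the other alternatives are given in the closing section. The fit was also run on simulated counts with known changes, and the outcome is not given here.

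The Cadm members, the lists of partners and adhesion genes and the tests were chosen with earlier results of these data known. The text gives all 4 members in every class, at most 4 genes of each list per contrast (the called ones of smallest adjusted p; Flrt1 and Lrrtm1 with age were added after their values were seen), and the 5 genes most like each member among genes reaching 10 CPM in a class. Clusters described within a class were chosen after their values were seen.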

Additional observations from a re-analysis of the deposited data

How the results depend on the processing

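With age, 6 of 34 pairs of a Cadm gene and a class were past the threshold in edgeR. Beside each count below stands the share of all pairs called in the same fit. The count was 1 with the median UMIs per nucleus as a covariate (0.0259%) and 1 with the trend over gene span removed (0.578%). In the latter fit Cadm2 in oligodendrocyte-like nuclei reversed, to a log2 fold change of -0.188. Leaving out 1 mouse at a time gave 2 to 6 calls (0.13% to 4.03%), with 3 without old ad libitum replicate 1 (1.19%) and 2 each without old ad libitum replicate 2 (0.295%), old ad libitum replicate 4 (0.397%) and young ad libitum replicate 2 (0.13%). Calls of Cadm1 were lost in 8, 9 and 4 of these 13 fits in astrocyte-like, granule-like and oligodendrocyte precursor-like nuclei, while the log2 values stayed within 0.535 to 0.645, 0.410 to 0.609 and 0.391 to 0.489. DESeq2 gave 7 (4.61%), a term for the libraries numbered 1 gave 8 (7.1%), leaving out those 4 libraries 7 (7.32%), and no low-count filter 6 of 36 (1.36%). A floor of 50 nuclei per sum gave 5 (1.62%), clustering without the Cadm genes 6 (1.5%) and doublets kept 6 (1.49%). No Cadm gene was among the variable genes, so the clustering without them could change little. Without TMM factors, an alternative chosen after seeing the data, the count was 5 (1.17%), with Cadm1 in granule-like nuclei no longer called. The cause of these differences was not tested.

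With the replicate number as a replicate block the ageing count was 8, where the share of all pairs called rose from 1.51% to 5.48%. The block changed no call in the 3 restriction contrasts, where the count was 0. There 0.163% (long-term), 0.418% (acute) and 0.0345% (long-term against acute) of all pairs were called. Same-numbered libraries correlated in their deviations for number 1 (0.405 to 0.81 in granule-like nuclei), but not every other pair exceeded 0.1, so the numbers were not taken to pair mice. In the restriction contrasts the count was 0 under every alternative run. Few pairs of any gene were called in such fits. With a term for the libraries numbered 1 the shares were 0.11% (long-term), 0.432% (acute) and 0.0287% (long-term against acute). The class with the highest level was the same under the alternatives run, except for Cadm4 in old mice fed ad libitum alone, where it was mural-like nuclei. The lowest changed for Cadm4 to endothelial-like nuclei without the libraries numbered 1 and to Cajal-Retzius-like nuclei in old mice fed ad libitum alone, for Cadm2 to Cajal-Retzius-like nuclei without the libraries numbered 1, and for Cadm3 to astrocyte-like nuclei with doublets kept. Of 52 class levels, 2 moved by more than 1 SD with doublets kept and 3 in old mice fed ad libitum alone. Levels that rest on few UMIs, such as those of Cadm3 and Cadm4 in vascular classes, are limited by depth.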
